A study of Gallus gallus with 12 samples.

Results

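The 9 genes described here make, break down, carry or bind retinoic acid, and they were read as 9 named rows of the 23726 gene rows that every count table of the series lists. They were chosen by name: ALDH1A1, ALDH1A2 and ALDH1A3 (the retinaldehyde dehydrogenases), CYP26A1, CYP26B1 and CYP26C1 (cytochrome P450 enzymes), RBP4 (a retinol-binding protein), STRA6 (a cell-surface receptor for retinol-binding protein) and CRABP1 (a cellular retinoic acid-binding protein). All 9 had a row in all 12 libraries.

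Retinoic acid is made from vitamin A in a pair of steps, of which the retinaldehyde dehydrogenases catalyse the last one. It enters the nucleus, where it acts through its receptors, and CYP26 enzymes oxidise it to products that are cleared. In the developing eye of vertebrates, ALDH1A1 is known as the enzyme of the dorsal retina and ALDH1A3 as that of the ventral retina, with CYP26 enzymes in a band between them. In chick, a central area that later becomes the zone of sharpest vision is known to express the growth factor gene FGF8 together with CYP26 enzymes.

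The cells came from retinas of chick embryos from specific-pathogen-free fertilised eggs, with pigment epithelium and pecten taken away before the tissue was dissociated with papain. No strain, genotype or treatment was named. Whole retina was sampled at embryonic day 12 (E12, 4 libraries) and at E18 (4 libraries), and retina enriched for retinal ganglion cells (RGCs) with an antibody to Thy-1 at E16 (2 libraries of dorsal and 2 of ventral retina). The description field of the E16 libraries names E18, while their title, stage field and protocol give E16, which is used here. No label ties a library to an embryo, so a p-value here covers only library-to-library spread, which may be technical. A batch that ran with stage, if there was one, and stage itself cannot be told apart.

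The tables hold counts of unique molecular identifiers (UMIs, 1 per captured transcript) for 95805 cell barcodes, with library totals from 1737033 to 27655687 UMIs. After removal of predicted doublets there were 50211 cells at E12, 8949 at E16 and 28218 at E18. Pairs of libraries of a group shared 278 to 298 barcodes at E12, 62 to 85 at E18 and 14 to 28 at E16, and these cells were kept. Cells were clustered without the 9 genes, and clusters were named from marker genes, which is why a class is called "Muller glia-like" and so on. The summed level of 9 pigment epithelium markers was 25.9 to 29.0 UMIs per 1000000 UMIs (CPM) at E12 and 83.7 to 88.6 CPM at E18. HINTW, a gene of the female W chromosome, had a UMI in 26.5% to 29.6% of E12 cells with at least 2000 UMIs and in 0 of the E18 cells, so sex and stage moved together. At E16 it had a UMI in 67.7% and 71.4% of such cells in the dorsal libraries and in 61.7% and 59.8% in the ventral ones. These ranges did not overlap, so the share also differed between the regions. ALDH1A1 and RBP4 lie on chromosome Z in the RefSeq gene table. The part of sex in their values was not tested beyond the alternative that kept only cells without a HINTW UMI. That alternative also left out cells under 2000 UMIs at every stage, so sex and depth cannot be told apart in it. Levels are CPM of a class in a library, as mean ± SD over 4 libraries unless stated. They are compared within a gene and not between genes.

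ALDH1A1 was a gene of Muller glia-like cells at both whole-retina stages. The class is named after the radial support cells of the retina and is called glia below for short. No marker list for nondividing progenitors was used, so at E12 the name does not set glia apart from such cells. In it ALDH1A1 measured 191, 186, 218 and 188 CPM in the 4 E12 libraries (196 ± 15.1). The 4 E18 libraries had 108, 104, 113 and 125 CPM (112 ± 9.05). Every E12 library lay above every E18 library. The E18 minus E12 difference was -0.59 ± 0.08 (log2, SE), which passed the adjusted threshold (edgeR quasi-likelihood test, Benjamini-Hochberg adjusted p = 5.21e-09) and stayed under the 2-fold change that a stage call required. Glia held 39.4% ± 2.78 of ALDH1A1 UMIs at E12, where they were 3.66% of cells, and 84.2% ± 1.5 at E18, where they were 12.6% of cells. Glial markers in this class differed between the stages, with GLUL at 225 CPM in the summed E12 cells and 11153 CPM at E18, SLC1A3 at 1580 and 8018 CPM, and RLBP1 at 273 and 2099 CPM. The part of these markers, and of a different mix of clusters, in the stage changes of this class was not tested.

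Outside glia, ALDH1A1 at E12 came next in cycling progenitor-like cells at 28.1 ± 1.62 CPM (26.3 to 30.2) and in amacrine-like cells, inhibitory interneurons, at 11.5 ± 1.66 CPM (9.61 to 13.3). Unnamed clusters followed at 10.2 ± 1.20 CPM, with a range that overlapped the amacrine-like one, and RGC-like cells at 5.76 ± 1.47 CPM. No ALDH1A1 UMI was found in 500 photoreceptor-like cells at E12, which allows up to 3.69 CPM. The amacrine-like level was 7.48 ± 1.55 CPM at E18, a difference of -0.82 ± 0.15 on the log2 scale (edgeR quasi-likelihood test, Benjamini-Hochberg adjusted p = 8.02e-05), again under 2-fold. Among E12 amacrine-like clusters, the one led by SLIT2 held the most ALDH1A1, 31.3 ± 8.83 CPM in 2676 cells. ALDH1A1 UMIs of each class were also set against those of the glial genes SLC1A3, GLUL and RLBP1. Per 100 SLC1A3 UMIs, E12 glia had 12.3 ALDH1A1 UMIs, amacrine-like cells 177, RGC-like cells 104, bipolar-like cells 52.4 and horizontal cell-like cells 36.4. Per 100 GLUL UMIs the order changed, with 86.8 in glia, 166 in amacrine-like, 75.4 in RGC-like, 21.2 in bipolar-like and 25.8 in horizontal cell-like cells. Per 100 RLBP1 UMIs glia were lowest of these classes, with 71.4 in glia, 504 in amacrine-like and 166 in RGC-like cells. Bipolar-like cells had 137.5 and horizontal cell-like cells 88.9, from 8 and 9 RLBP1 UMIs. At E18, glia had 1.40 and amacrine-like cells 21.3 ALDH1A1 UMIs per 100 SLC1A3 UMIs, and 1.01 and 10.7 per 100 GLUL UMIs. Per 100 RLBP1 UMIs they had 5.35 and 37.6. The part of free RNA in the neuronal levels was not tested.

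ALDH1A3 was detected in the same classes at a lower count. Its E12 glial levels were 26.2, 28.0, 23.1 and 16.3 CPM (23.4 ± 5.12) and its E18 glial levels 12.1, 13.4, 17.1 and 11.3 CPM (13.5 ± 2.54). The lowest E12 library lay below the highest E18 library, so the stages overlapped. The stage difference of -0.60 ± 0.22 on the log2 scale (edgeR quasi-likelihood test, Benjamini-Hochberg adjusted p = 0.0140) was under 2-fold, and it ran from -0.96 to 0.37 over the alternatives. E12 cycling progenitor-like cells held 19.2 ± 6.37 CPM (11.9 to 25.9), which overlapped the E12 glial range of 16.3 to 28.0. The means of all other named classes were at or below 2.13 CPM at either stage.

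The 2 E18 glial clusters held ALDH1A1 and ALDH1A3 in opposite order. The cluster of 2335 cells led by PSCA and CA14 had 123 ± 12 CPM of ALDH1A1 and 4.16 ± 0.85 CPM of ALDH1A3. The cluster of 1222 cells led by LFNG and METRN had 67.7 ± 17.0 CPM of ALDH1A1 and 51.2 ± 15.4 CPM of ALDH1A3, which was 120 of the 160 glial ALDH1A3 UMIs. The 2 clusters did not overlap in either gene over the 4 libraries. SPARCL1, SLC1A3 and TMEM123, leading genes of the single E12 glial cluster, were also among the leading genes of the LFNG and METRN cluster.

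Whether 1 glial cell carries both enzymes was read from shared UMIs. At E12, 334 of 1839 glia had an ALDH1A1 UMI, 56 had an ALDH1A3 UMI and 2 had both, against 10.2 from the product of the shares. At E18, 795 of 3557 glia had ALDH1A1, 138 had ALDH1A3 and 0 had both, against 30.8 from the product.

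Glia were then divided by TBX5, a transcription factor gene of dorsal retina, and VAX1, one of ventral retina. The cells per library (18 to 29 with TBX5 and 13 to 28 with VAX1 at E12) did not reach the minimum of 20 per library set for a test, and none was run. Summed counts are given with exact Poisson 95% intervals, and a count of 0 with the limit of 3 counts of the total, both for counting error only. At E12, 94 TBX5 cells held 90 ALDH1A1 UMIs, or 556 CPM (447 to 683), and 0 ALDH1A3 UMIs, which allows up to 18.5 CPM. The 83 VAX1 cells held 3 ALDH1A1 UMIs, or 21.4 CPM (4.40 to 62.4), and 9 ALDH1A3 UMIs, or 64.1 CPM (29.3 to 122). By library, TBX5 cells held 18, 40, 8 and 24 ALDH1A1 UMIs and VAX1 cells 1, 0, 0 and 2. ALDH1A3 UMIs were 0 in TBX5 cells of all 4 libraries and 2, 1, 2 and 4 in VAX1 cells. At E18, 175 TBX5 cells held 206 ALDH1A1 UMIs, or 258 CPM (224 to 296), and 0 ALDH1A3 UMIs, which allows up to 3.76 CPM. The 58 VAX1 cells of E18 held 2 ALDH1A1 UMIs, or 12.9 CPM (1.56 to 46.5), and 9 ALDH1A3 UMIs, or 57.9 CPM (26.5 to 110). TBX5 cells were deeper than VAX1 cells at E18, with 797813 UMIs in 175 cells against 155514 in 58.

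**Figure D1:**
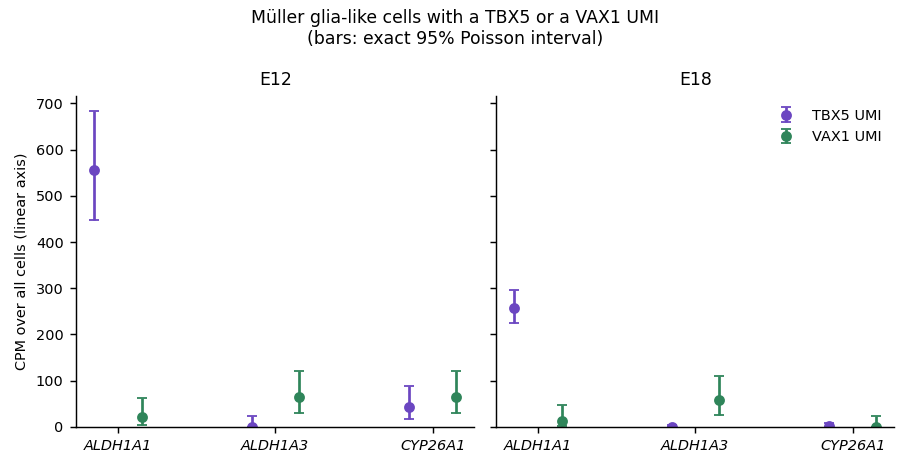
Levels of ALDH1A1, ALDH1A3 and CYP26A1 in Muller glia-like cells with a TBX5 UMI and in those with a VAX1 UMI, at E12 and E18, in CPM on a linear axis, with exact Poisson 95% intervals over summed cells. ALDH1A1 stands at 556 CPM in E12 TBX5 cells and 21.4 CPM in VAX1 cells, and ALDH1A3 at 64.1 CPM in E12 VAX1 cells with 0 UMIs in TBX5 cells.

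ALDH1A2, the third dehydrogenase, was near the limit of detection in every class. All cells together held 48 ALDH1A2 UMIs at E12 and 111 at E18. That is 0.616, 0.691, 0.505 and 0.365 CPM at E12 and 2.18, 1.76, 1.66 and 1.67 CPM at E18. The libraries of the stages did not overlap, and the rise of 1.51 ± 0.22 on the log2 scale was called (edgeR quasi-likelihood test, Benjamini-Hochberg adjusted p = 1.17e-05). ALDH1A2 passed the low-count filter of that test through the E18 libraries, in which it was high. The rise ran from 1.35 to 1.89 over the alternatives. In cells summed over a whole library, more cells of a type and more RNA per cell cannot be told apart. The highest E18 cluster was a bipolar-like one led by ISOC1 with 30.2 ± 8.07 CPM, from 12 UMIs in 279 cells.

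Of the breakdown enzymes, CYP26A1 was the one with a clear pattern. It fell in Muller glia-like cells from 56.1, 101, 92.3 and 84.4 CPM at E12 (83.5 ± 19.5) to 6.06, 10.4, 13.9 and 9.05 CPM at E18 (9.85 ± 3.24). The lowest E12 library was above the highest E18 library. The fall was -2.86 ± 0.18 on the log2 scale (edgeR quasi-likelihood test, Benjamini-Hochberg adjusted p = 7.88e-21), and it ran from -3.07 to -2.67 over the alternatives. Glia held 77.0% ± 3.49 of all CYP26A1 UMIs at E12 and 75.4% ± 5.49 at E18. Next at E12 came an amacrine-like cluster led by PPP1R17 and EOMES with 6.38 ± 2.49 CPM and cycling progenitor-like cells with 5.99 ± 1.83 CPM, whose ranges overlapped.

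At E18, photoreceptor-like cells held 23 CYP26A1 UMIs (4.16 ± 1.52 CPM), against 0 UMIs at E12, which allows up to 3.69 CPM, so a difference between the stages was not detectable at this depth. Of these UMIs, 18 lay in 800 cells of a single cluster that carried the red opsin gene OPN1LW, at 7.95, 22.3, 23.4 and 17.0 CPM (17.6 ± 7.05). The other large OPN1LW cluster held 3 UMIs in 1153 cells, or 2.1 ± 1.41 CPM, and its highest library, 3.03 CPM, lay below the lowest of the first. All 5 photoreceptor UMIs of CYP26C1 also lay in the cluster with more CYP26A1.

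CYP26C1 and CYP26B1 were rare. CYP26C1, which has no protein-coding gene between itself and CYP26A1 in the RefSeq gene table, had 28 UMIs at E12, 14 at E16 and 48 at E18. Of the 25 UMIs in E18 glia, all 25 lay in the PSCA and CA14 cluster. CYP26B1 had 15 UMIs at E12, 59 at E16 and 10 at E18. Neither gene passed the low-count filter in any class between the stages.

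E12 glia with an FGF8 UMI were set against glia without one. There were 219 such cells among 1839, with 56, 55, 50 and 58 cells in the 4 libraries, and 382 of the 461 FGF8 UMIs of E12 lay in glia. CYP26A1 measured 116, 123, 205 and 302 CPM in FGF8-positive glia and 47.3, 97.4, 74.7 and 45 CPM in FGF8-negative glia of the same libraries. It was higher in the FGF8-positive cells in 4 of 4 libraries, and the groups did not overlap. The difference was 1.49 ± 0.22 on the log2 scale (edgeR quasi-likelihood test, Benjamini-Hochberg adjusted p = 3.62e-09), with a range of 0.98 to 2.74 over the alternatives. CYP26C1 had 6 UMIs in 5 FGF8-positive cells of 2 libraries and 0 in FGF8-negative glia. Over the summed cells its level was 12-fold higher against a floor of 3 counts for the group at 0. The exact interval of the ratio began lower, at 7.09-fold, and covers counting error only. CYP26B1 had 0 UMIs in both groups.

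ALDH1A1 was called lower in FGF8-positive glia, a call that some alternatives ended. It measured 77.4, 158, 79.7 and 160 CPM in them and 208, 192, 240 and 193 CPM in FGF8-negative glia, without overlap. The difference was -0.76 ± 0.20 on the log2 scale (edgeR quasi-likelihood test, Benjamini-Hochberg adjusted p = 4.92e-03). It was not called without E12 library 1 (adjusted p = 0.16), without library 3 (adjusted p = 0.15) or with DESeq2 (adjusted p = 0.38), and it changed sign, to 0.36, when cycling progenitor-like cells were added. ALDH1A3 had 1 UMI in FGF8-positive and 68 in FGF8-negative glia, a ratio of 0.0886 (95% interval 0.0022 to 0.510, counting error only), and it did not pass the low-count filter. ALDH1A2 had 1 UMI in FGF8-positive and 5 in FGF8-negative glia. CRABP1 was 0.25 ± 0.12 higher on the log2 scale and RBP4 0.05 ± 0.19 (edgeR quasi-likelihood test, Benjamini-Hochberg adjusted p = 0.275 and 0.946). Of the 4 members tested, 2 were called, 1 in each direction, against 4.57% of all genes tested, 2.55% higher and 2.02% lower. FGF8-positive glia were deeper, with library medians of 1562 to 1815 UMIs against 1409 to 1495, and the part of depth in these differences was not tested.

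Of the 12 other retinoid pathway genes tested in this split, 2 rose and 3 fell, against 2.55% higher and 2.02% lower of all genes tested. CYP1B1, which can oxidise retinol, was 1.20 ± 0.14 higher and RLBP1, the retinaldehyde-binding protein of glia, 1.27 ± 0.12 higher on the log2 scale (edgeR quasi-likelihood test, Benjamini-Hochberg adjusted p = 4.7e-15 and 1.1e-21). RDH10, which makes retinaldehyde from retinol, was -1.52 ± 0.28, DHRS3, which turns it back to retinol, -0.84 ± 0.15, and FABP5, a fatty acid and retinoic acid carrier, -0.63 ± 0.20 (adjusted p = 3.6e-06, 9.4e-07 and 0.04 in the same edgeR test). DHRS3 libraries overlapped between the groups.

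**Figure D2:**
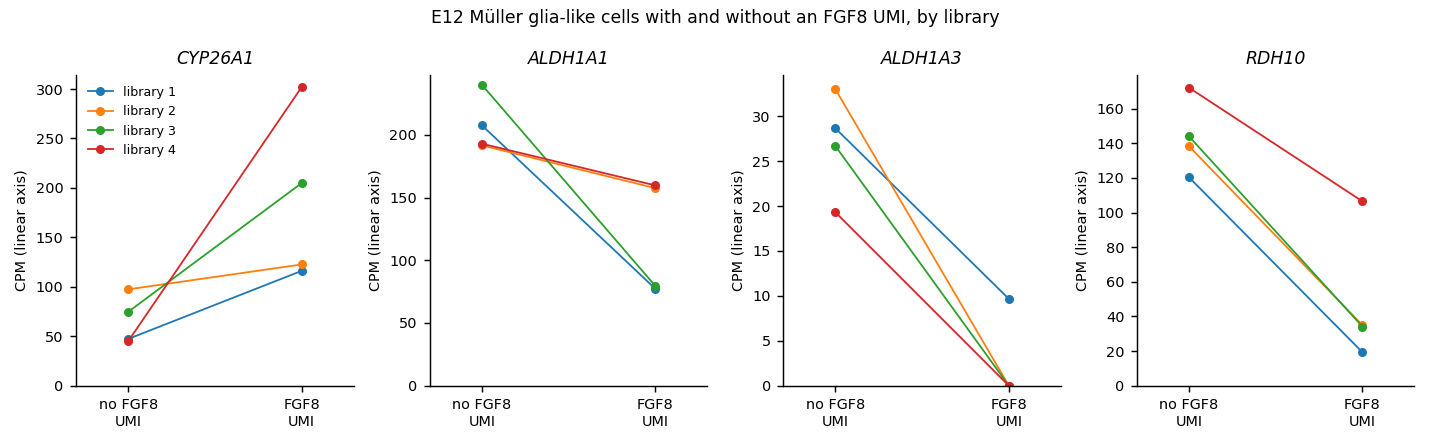
Levels of CYP26A1, ALDH1A1, ALDH1A3 and RDH10 in E12 Muller glia-like cells with and without an FGF8 UMI, 1 line per library joining the groups, in CPM on a linear axis that differs by gene. CYP26A1 is higher in FGF8-positive cells in all 4 libraries (116 to 302 against 45 to 97.4 CPM), and ALDH1A1 is lower in all 4.

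RBP4 was by far highest in photoreceptor-like cells. The row named RBP4 has the synonym RBP4B in the RefSeq gene table, while the row named RBP4A has the synonym RBP4, so the values below are those of RBP4B in that naming. It measured 11249, 12463, 12323 and 12488 CPM in E12 photoreceptor-like cells (12131 ± 592) and 11103, 10813, 11446 and 10787 CPM at E18 (11037 ± 308). The lowest E12 library lay below the highest E18 library. The fitted stage difference was -0.58 ± 0.03 on the log2 scale (edgeR quasi-likelihood test, Benjamini-Hochberg adjusted p = 5.09e-28), under 2-fold, and -0.14 when library totals replaced the scaling by trimmed means, which moved the median of all genes from 0.08 to 0.52. The part of a different mix of photoreceptor types in the stage difference of RBP4 was not tested. The row RBP4A had 39 UMIs at E12 and 82 at E18 in all cells.

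RBP4 UMIs were also found in every other class. At E12, a UMI of it was found in 19.4% to 24.2% of the cells of each other class, with class medians of 1344 to 2341 UMIs per cell. RBP4 was set against other photoreceptor genes in each class. Per UMI of PRDM1, a gene of young photoreceptors, E12 RBP4 UMIs were 14.9 in photoreceptor-like cells, 15 in glia, 15.5 in RGC-like, 14.7 in amacrine-like, 12.8 in horizontal cell-like, 11.8 in cycling progenitor-like and 4.76 in bipolar-like cells. Per UMI of GNGT2, a cone transducin gene, they were 23.6 in photoreceptor-like cells and 40.9 to 121 in these other classes. At E18 they were 3.32 per GNGT2 UMI in photoreceptor-like cells and 3.59 to 4.25 in glia, RGC-like, amacrine-like, bipolar-like and horizontal cell-like cells. Per UMI of ARR3, the cone arrestin gene, they were 5.80 in photoreceptor-like cells and 2.43 to 4.09 in those 5 classes. The part of free RNA in RBP4 outside photoreceptor-like cells was not tested. Photoreceptor-like cells held 29.2% ± 2.53 of RBP4 UMIs at E12 and 95.9% ± 0.12 at E18. RBP4 was called lower at E18 in each of the other 5 classes tested, from -3.97 ± 0.14 in horizontal cell-like cells to -1.58 ± 0.11 in glia on the log2 scale. Over all cells RBP4 measured 383 ± 16.9 CPM at E12 and 1041 ± 24.5 CPM at E18, a difference of 1.22 ± 0.03 on the log2 scale (edgeR quasi-likelihood test, Benjamini-Hochberg adjusted p = 1.20e-15). That value was 0.04 when barcodes needed at least 1000 genes, and it reversed to -1.18 when only cells of 2000 UMIs or more without a HINTW UMI were used. In the E16 libraries, 3 RBP4 UMIs were found in 8949 cells.

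Photoreceptors of E18 were divided by the opsin that gave at least 80% of at least 2 opsin UMIs in a cell, a split made after their values were seen. RBP4 measured 12301 ± 353 CPM in OPN1LW (red) cells, 8668 ± 1559 CPM in OPN2SW (blue) cells and 4594 ± 440 CPM in OPN1MSW (green) cells. The blue libraries (6481 to 9937 CPM) lay below the red ones, and the green libraries (4024 to 5099 CPM) lay lowest. Among red cells, RBP4 was 15729 ± 421 CPM in the cluster with more CYP26A1 and 11385 ± 369 CPM in the other large cluster, without overlap.

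STRA6 was low at E12 (3.31 ± 0.28 CPM over all cells) and rose in photoreceptor-like cells. It had 0 UMIs in them at E12 and measured 61.2, 83.5, 110 and 101 CPM at E18 (88.9 ± 21.5, 493 UMIs). That is at least 24.1-fold higher, against a floor of 3 counts over the 4 E12 libraries, and it was called (edgeR quasi-likelihood test, Benjamini-Hochberg adjusted p = 1.94e-13). The gene was not tested in this class when cells needed at least 1000 genes, or when only cells of 2000 UMIs or more without a HINTW UMI were used, because it then failed the low-count filter. In the main fit STRA6 passed that filter through the E18 libraries alone, the group in which it was high. Of the 3 members tested in photoreceptor-like cells, 1 was called, against 27.3% of all genes tested, 16.6% higher and 10.7% lower. The 1 call thus depends on the filter and says nothing about the members as a group. The class was a single cluster of 500 cells at E12, led by ARHGAP18, PRLH and INHBB, and 4409 cells of several clusters at E18. The part of a different mix of photoreceptor types in the stage changes of this class was not tested.

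Most STRA6 of photoreceptors lay in a small set of red-opsin cells. These 220 OPN1LW cells fell into the cluster that otherwise held green and blue cones, and they had 397 of the 493 photoreceptor UMIs. Their STRA6 level was 1044, 1657, 1595 and 1449 CPM (1436 ± 276), and 163 of them (74.1%) had a UMI. The other large OPN1LW clusters held 6 UMIs in 1153 cells (4.12 ± 4.70 CPM) and 1 UMI in 800 cells (0.93 ± 1.86 CPM), so the lowest library of the small set lay above every library of both. OPN2SW cells had 192 ± 92.4 CPM and OPN1MSW cells of the same cluster 34.8 ± 17.0 CPM. CYP2J19 is the enzyme known in birds for making the red pigment of cone oil droplets. It had 58 UMIs in the 220 cells (204 ± 59.8 CPM) and 0 UMIs in both other large red clusters. Among the genes compared over E18 clusters, CYP2J19 was the one most like STRA6 (Pearson's r 0.63), so the shared pattern is no separate support. The 220 cells differed in RBP4 too, with 4551 ± 439 CPM.

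**Figure D3:**
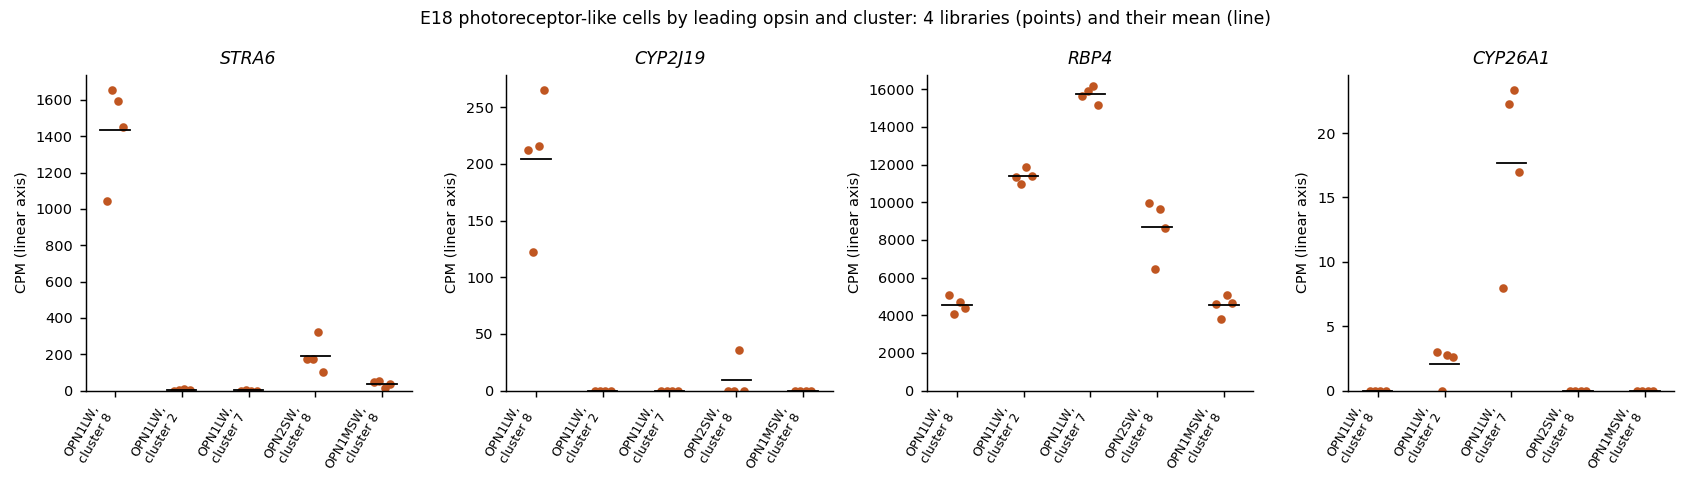
Levels of STRA6, CYP2J19, RBP4 and CYP26A1 in E18 photoreceptor-like cells by leading opsin and cluster, 1 point per library with the mean as a line, in CPM on a linear axis that differs by gene. The 220 OPN1LW cells of the cluster shared with green and blue cones hold STRA6 at 1436 ± 276 CPM, and the OPN1LW cluster of 800 cells holds CYP26A1 at 17.6 ± 7.05 CPM.

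STRA6 marked a few interneuron clusters as well. At E18 it measured 198 ± 41.5 CPM in an unnamed cluster of 912 cells led by NMB and LMOD3, 86.7 ± 24.7 CPM in a bipolar-like cluster led by NMU and LMOD3, 56.3 ± 27.1 CPM in a horizontal cell-like cluster led by HMX2, and 53.7 ± 20.4 CPM in an amacrine-like cluster led by NTS. The last 3 overlapped one another, and the NMB cluster (169 to 260 CPM) lay above the 3. In horizontal cell-like cells as a class, STRA6 rose from 1.53, 4.54, 4.75 and 6.78 CPM at E12 to 42.3, 18.4, 17.1 and 20.1 CPM at E18. No library overlapped, and the difference was 2.28 ± 0.39 on the log2 scale (edgeR quasi-likelihood test, Benjamini-Hochberg adjusted p = 6.13e-07). STRA6 passed the low-count filter in this class through the E18 libraries alone, in which it was high. In amacrine-like cells it was 0.74 ± 0.20 higher (edgeR quasi-likelihood test, Benjamini-Hochberg adjusted p = 2.94e-03), under 2-fold. Over all cells it rose by 2.26 ± 0.08, by 1.77 with at least 1000 genes per barcode, and by 0.80, under 2-fold, with only cells of 2000 UMIs or more without a HINTW UMI.

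CRABP1, the cytoplasmic binding protein, was found in all classes and was called lower at E18 in 2 of them. It fell in Muller glia-like cells from 475, 456, 460 and 430 CPM at E12 (455 ± 18.7) to 25.9, 30.3, 35.9 and 30.4 CPM at E18 (30.6 ± 4.08). The difference was -3.69 ± 0.08 on the log2 scale (edgeR quasi-likelihood test, Benjamini-Hochberg adjusted p = 2.42e-42). It fell likewise in horizontal cell-like cells from 343, 354, 286 and 366 CPM to 41.2, 35.6, 53.6 and 44.7 CPM, by -3.08 ± 0.11 (edgeR quasi-likelihood test, Benjamini-Hochberg adjusted p = 1.62e-39). In neither class did the stages overlap.

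CRABP1 was highest in bipolar-like and amacrine-like cells at both stages. Bipolar-like cells, which link photoreceptors to ganglion cells, held 1139 ± 103 CPM at E12 and 1208 ± 57.7 CPM at E18, with overlapping libraries and a difference of -0.01 ± 0.05 on the log2 scale. Amacrine-like cells held 1020 ± 45.9 CPM at E12 and 662 ± 31.6 CPM at E18 without overlap, a difference of -0.83 ± 0.04 (edgeR quasi-likelihood test, Benjamini-Hochberg adjusted p = 2.78e-13) that was under 2-fold. RGC-like cells held 100 ± 9.68 and 115 ± 21.5 CPM, and photoreceptor-like cells 57.9 ± 14.3 and 46.5 ± 3.29 CPM. The part of free RNA in the lowest E18 levels (glia, horizontal cell-like and photoreceptor-like cells, 30.6 to 46.5 CPM) was not tested.

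CRABP1 also separated clusters within a class. At E12 it was highest in an amacrine-like cluster led by MAF and MAFA, 4992 ± 619 CPM in 535 cells, and next in clusters led by ANGPTL4 and GBX2 (2482 ± 107 CPM) and by EGR3 and HS3ST1L (2416 ± 69.3 CPM), which overlapped each other. At E18 it was highest in 4 bipolar-like clusters, led by DMBX1, SLC6A4, TMEM158 and GSG1L2, with 3490 ± 44.8, 3334 ± 270, 3248 ± 237 and 3072 ± 167 CPM, followed by an amacrine-like cluster led by NRP2 with 2720 ± 142 CPM.

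**Figure D4:**
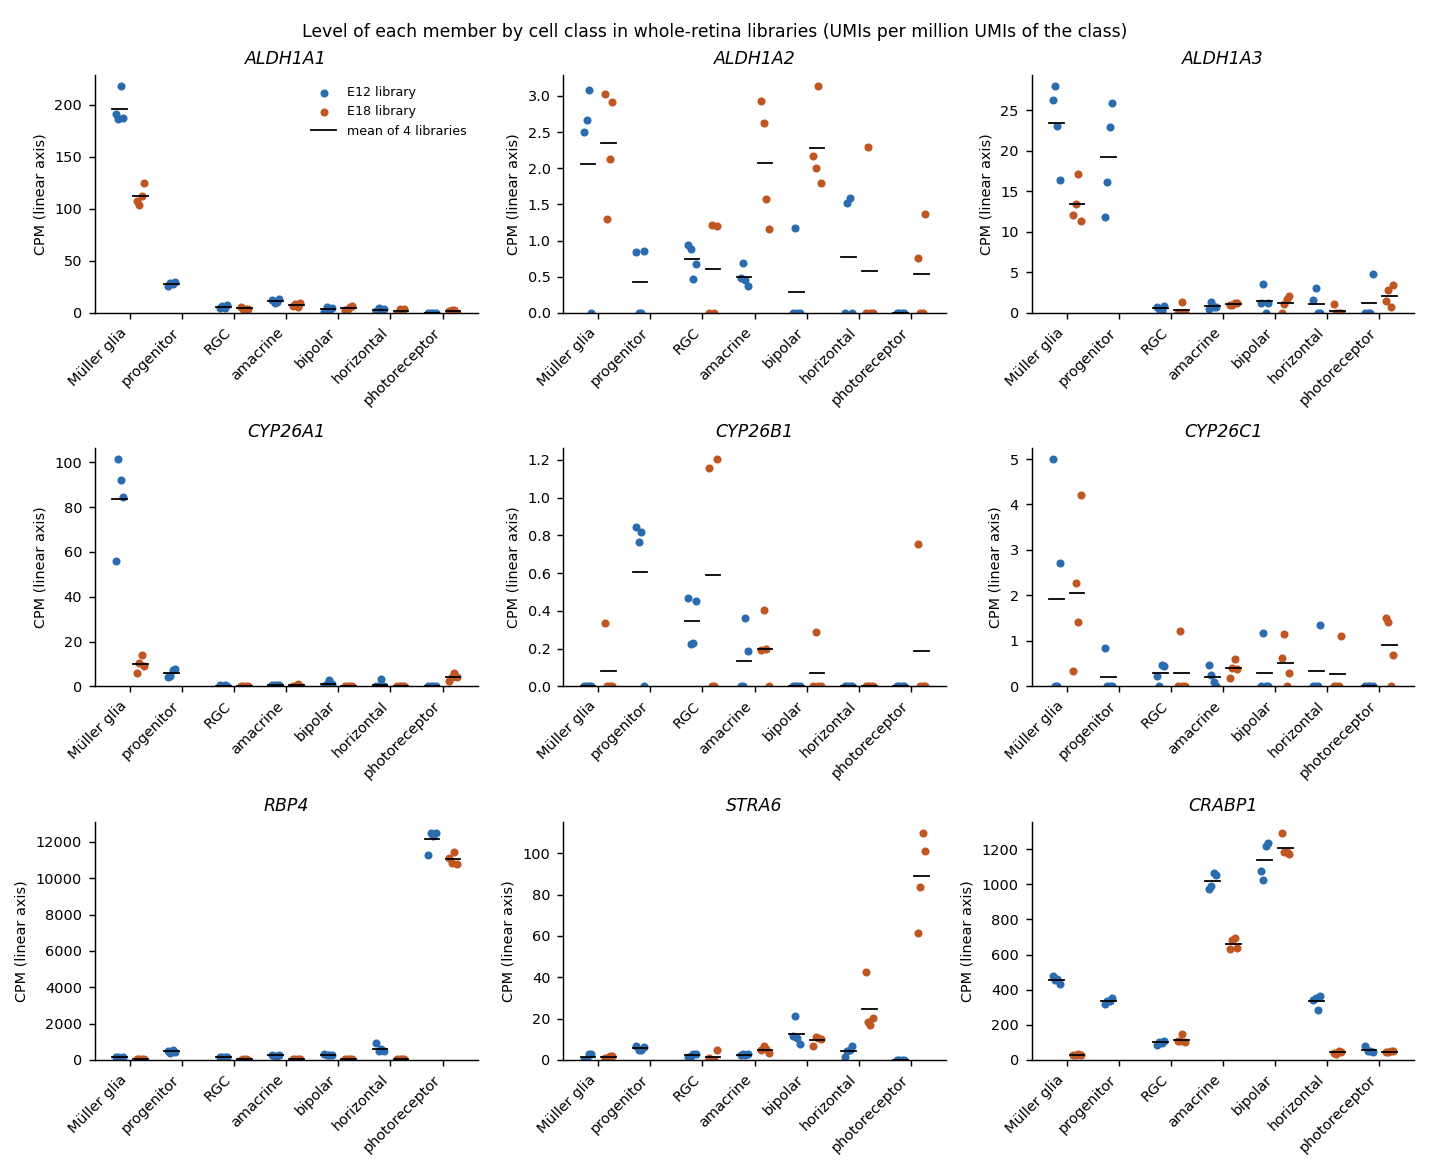
Level of each of the 9 genes in each cell class at E12 and E18, in CPM on a linear axis that differs by gene, 1 point per library with the mean as a line. ALDH1A1 and CYP26A1 are highest in Muller glia-like cells, RBP4 in photoreceptor-like cells (12131 ± 592 CPM at E12), and CRABP1 in bipolar-like and amacrine-like cells.

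The members called between the stages were counted beside the share of all tested genes that was called. In Muller glia-like cells 3 of the 5 members tested were called, all lower (CRABP1, CYP26A1 and RBP4), against 28.2% of all genes tested, of which 17.1% of genes were higher and 11.1% lower. In horizontal cell-like cells 3 of 3 were called, STRA6 higher and CRABP1 and RBP4 lower (22.0% of all genes, 11.2% higher and 10.8% lower). In amacrine-like cells it was 1 of 4, lower (20.2% of all genes, 12.4% higher and 7.89% lower). In bipolar-like cells it was 1 of 4, lower (21.7%, 13.6% higher and 8.16% lower), and in RGC-like cells 1 of 3, lower (18.4%, 10.7% higher and 7.77% lower). Over all cells 3 of 7 were called, ALDH1A2, RBP4 and STRA6, all higher at E18 (25.0% of all genes, 16.6% higher and 8.32% lower). In amacrine-like, bipolar-like and RGC-like cells the only member called was RBP4, which was also among the calls in glia and horizontal cell-like cells. The part of free RNA in these RBP4 calls was not tested. STRA6 in horizontal cell-like cells and ALDH1A2 over all cells passed the low-count filter through the E18 libraries, in which they were high. Their part in these counts thus depends on the filter. With so few members tested per class, these shares describe the members and are not a test of the group.

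The stage change in glia was compared with that in amacrine-like cells by an interaction term over the same 8 libraries. It differed for 3 of the 7 members tested, against 50.6% of all genes tested, 27.9% higher and 22.6% lower. CRABP1 fell further in glia, by -2.83 ± 0.08 on the log2 scale (edgeR quasi-likelihood test, Benjamini-Hochberg adjusted p = 3.25e-250). CYP26A1 also fell further in glia, by -2.25 ± 0.70 (edgeR quasi-likelihood test, Benjamini-Hochberg adjusted p = 3.63e-03), a difference not called without E18 library 3 (-1.76, adjusted p = 0.14) or with only cells of 2000 UMIs or more without a HINTW UMI (-1.71, adjusted p = 0.14). The amacrine-like side of this term rests on 26 CYP26A1 UMIs at E12 and 9 at E18 (0.59 and 0.44 CPM). The part of free RNA in them was not tested. RBP4 fell less in glia, with a difference of 1.75 ± 0.11 (adjusted p = 7.68e-52 in the same edgeR test), and the part of free RNA in it was not tested. For ALDH1A1 the term was 0.27 ± 0.16 (edgeR quasi-likelihood test, Benjamini-Hochberg adjusted p = 0.145). Cells of both classes came from the same libraries, and the fit had the library as a block.

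Other genes of vitamin A metabolism, from 3 lists with 30 of 37 genes in the files, moved in both directions in glia. Of 20 tested, 7 rose and 3 fell between E12 and E18, against 17.1% higher and 11.1% lower of all genes tested. The median change of the 20 was 0.64 on the log2 scale, against 0.01 over all genes. The largest rises were RDH12 (3.93 ± 0.10), a retinol dehydrogenase, RXRG (3.82 ± 0.14), a retinoid X receptor, RLBP1 (3.15 ± 0.05), RARA (2.28 ± 0.40), a retinoic acid receptor, and RDH5 (1.83 ± 0.27). The falls were CRABP2 (-3.51 ± 0.17), a relative of CRABP1, FABP5 (-1.39 ± 0.09) and RDH10 (-1.33 ± 0.11). Their Benjamini-Hochberg adjusted p in the edgeR quasi-likelihood test was 1.3e-06 or below. In photoreceptor-like cells 8 of 16 rose and 0 fell, against 16.6% higher and 10.7% lower of all genes tested. The rises were led by RDH12 (5.94 ± 0.19), RLBP1 (4.13 ± 0.80), BCO2 (2.80 ± 0.58), a carotenoid-cleaving enzyme, FABP5 (1.85 ± 0.14) and RXRA (1.66 ± 0.40). All of these had an adjusted p of 2.5e-04 or below in the same edgeR test. RLBP1 was called higher in all 6 classes. Its E18 level was 2099 CPM in summed glia and 19.3 to 32.0 CPM in the 5 neuronal classes. The part of free glial RNA in the latter was not tested. At E12, RLBP1 had 1 UMI in photoreceptor-like, 8 in bipolar-like and 9 in horizontal cell-like cells. In those classes it passed the low-count filter through the E18 libraries, in which it was high. The counts of pathway genes that rose in those classes thus depend in part on the filter. In bipolar-like cells 7 of 17 rose and 0 fell, against 13.6% higher and 8.16% lower of all genes tested. In horizontal cell-like cells 6 of 14 rose and 2 fell (11.2% and 10.8% of all genes). In amacrine-like cells 3 of 21 rose and 1 fell (12.4% and 7.89%), and in RGC-like cells 5 of 19 rose and 1 fell (10.7% and 7.77%). These counts describe the listed genes and are not a test of the lists.

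At E16 the question was whether dorsal and ventral RGC-like cells differed in these genes. The labels were checked first with the regional factors. TBX5 had 73 UMIs in 2062 dorsal and 11 in 5849 ventral RGC-like cells, and VAX1 had 1 and 338. ALDH1A1 measured 4.42 and 2.71 CPM in the 2 dorsal libraries and 0.151 and 0.0823 CPM in the 2 ventral ones, from 14 and 3 UMIs. The regions did not overlap. The difference was 4.64 ± 0.75 on the log2 scale (edgeR quasi-likelihood test, Benjamini-Hochberg adjusted p = 1.79e-05), and the ratio of the summed counts was 28.5 (exact 95% interval 7.94 to 154, counting error only). ALDH1A1 failed the low-count filter, and so was not tested, without dorsal library 1, without dorsal library 2, with thinned ventral sums and with only cells of 2000 UMIs or more without a HINTW UMI. DESeq2 gave it no adjusted p. In the main fit ALDH1A1 passed that filter through the dorsal libraries alone, the group in which it was high. The 14 dorsal UMIs lay in 14 cells, and the summed level of 12 glial markers was 251 to 270 CPM in all 4 libraries. Per 100 SLC1A3 UMIs there were 117 ALDH1A1 UMIs in dorsal and 2.46 in ventral RGC-like cells, and per 100 GLUL UMIs 29.8 and 1.22. Whether the UMIs came from the RGC-like cells or from free RNA of dorsal cells was not tested.

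ALDH1A3 ran the other way in count, with 0 and 0.387 CPM in dorsal and 1.05 and 1.40 CPM in ventral RGC-like cells, from 1 and 31 UMIs. The ratio of 0.197 (exact 95% interval 0.0048 to 1.18) includes no difference, and the gene did not pass the low-count filter. ALDH1A2 was 0.73 ± 0.61 on the log2 scale (edgeR quasi-likelihood test, Benjamini-Hochberg adjusted p = 0.476), from 8 and 29 UMIs. CRABP1 measured 100 and 110 CPM in dorsal and 85.7 and 77.0 CPM in ventral RGC-like cells, without overlap. Its difference of 0.37 ± 0.09 (edgeR quasi-likelihood test, Benjamini-Hochberg adjusted p = 1.99e-03) was not called with DESeq2 (adjusted p = 0.075), without dorsal library 2 (0.22), without ventral library 2 (0.10) or with only cells of 2000 UMIs or more without a HINTW UMI (0.51). Of the 3 members tested, 2 were called, both higher in dorsal cells, against 15.2% of all genes tested, 7.72% higher and 7.53% lower. ALDH1A1 passed the low-count filter only through the dorsal libraries, and ALDH1A3, with 31 ventral UMIs, did not pass. The shared direction of the 2 calls thus depends on the filter and says nothing about the members as a group.

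Ventral amacrine-like cells of the E16 libraries held 23 UMIs of CYP26A1 and 26 of CYP26B1, and the 228 dorsal ones held 0 of either, which allows up to 8.63 CPM. The upper 95% bounds of the dorsal over ventral ratios were 1.16 and 1.01, so a regional difference was not detectable at this depth. Most of the CYP26A1 UMIs lay in an EOMES and NPNT cluster with 114 ventral and 3 dorsal cells, where CYP26A1 measured 48.5 ± 22.7 CPM (n = 2) and CYP26B1 41.5 ± 2.45 CPM (n = 2). At E12 the amacrine-like cluster highest in CYP26A1 was the one led by PPP1R17 and EOMES, as given above. Clusters were not matched between stages. The unnamed E16 cluster led by PPP1R17 and CALCB had 0 CYP26A1 UMIs in 35 cells. Of the members, only CRABP1 could be tested in E16 amacrine-like cells, with 431 and 595 CPM in dorsal and 362 and 423 CPM in ventral libraries. It was not called (edgeR quasi-likelihood test, Benjamini-Hochberg adjusted p = 0.125, unadjusted p = 0.00747), so 0 of 1 were called, against 3.47% of all genes tested, 2.03% higher and 1.45% lower. DESeq2 also called 0.

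Among the 21 other retinoid pathway genes tested between dorsal and ventral RGC-like cells, 2 were higher in dorsal cells and 3 lower. Over all genes tested, 7.72% were higher and 7.53% lower. Of the 2 higher pathway genes, RXRG was 1.07 ± 0.17 higher on the log2 scale. BCO2 was -1.40 ± 0.36, RBP5, a cellular retinol-binding protein, -0.40 ± 0.14 and FABP5 -0.31 ± 0.06, and the Benjamini-Hochberg adjusted p of these 4 in the edgeR quasi-likelihood test ran from 1.3e-05 to 0.046. The ventral libraries were deeper, with medians of 4161 and 4166 UMIs against 1670 and 1872.

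**Figure D5:**
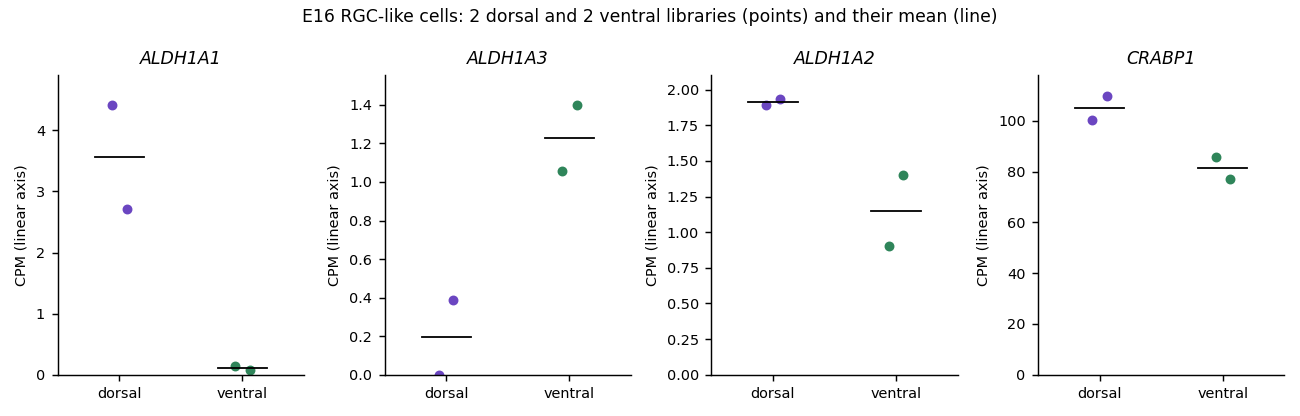
Levels of ALDH1A1, ALDH1A3, ALDH1A2 and CRABP1 in dorsal and ventral RGC-like cells at E16, 1 point per library (2 per region) with the mean as a line, in CPM on a linear axis that differs by gene. ALDH1A1 is higher in both dorsal libraries (4.42 and 2.71 CPM) than in both ventral ones (0.151 and 0.0823 CPM), and ALDH1A3 has 1 dorsal and 31 ventral UMIs.

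The genes whose pattern over clusters was most like that of a member were named by Pearson's r of log2 levels, as a description over clusters that share libraries. At E12, over 26 clusters, they were AHCYL2, CYP1B1 and CRABP2 for ALDH1A1 (0.90, 0.88 and 0.87), SMO, FGFBP3 and BMPR1B for ALDH1A3 (0.97, 0.96 and 0.96), ANKRD33, WIF1 and VEGFRKDRL for CYP26A1 (0.98 each), NR2E3 and CABP4 for RBP4 (0.98 and 0.96), RBM15B for STRA6 (0.79) and CDKN1B for CRABP1 (0.69). At E18, over 47 clusters, they were SLC25A21, USP25 and AHCYL2 for ALDH1A1 (0.88, 0.88 and 0.87), ZNF750 and HES5 for ALDH1A3 (0.89 and 0.88), RBP3, CABP4 and IMPG2 for RBP4 (0.98, 0.98 and 0.97), CYP2J19, SLC27A6 and SMIM24 for STRA6 (0.63, 0.60 and 0.56) and ZFHX4 for CRABP1 (0.76). CYP26A1 had too few E18 UMIs for this, as had ALDH1A2, CYP26B1 and CYP26C1 at both stages.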

How the data were processed

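Single-cell RNA libraries of chick retina were made with Chromium 3′ version 2 chemistry, per the labels' protocols. Cell Ranger 2.1.0 and the GRCg6a build are named in the submitters' processing notes. The deposited tables hold raw UMI counts per gene and barcode, with no normalization by the authors in the files. They list 23726 genes in 12 libraries, and 0 value columns had no sample. All counts were used as deposited. No barcode had under 500 genes.

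The 9 members and all gene lists were chosen with earlier results of these data known. Some genes that the naming rules picked, and 1 opsin group, are not reported here. The text always names the members, and of the other pathway genes up to 5 called in each direction per comparison. Gene synonyms, chromosomes and neighbours come from a RefSeq gene table of another build, so no coordinates are printed.

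Doublets were scored by the share of simulated sums among 15 neighbours, and barcodes were removed at 0.8% per 1000. Clusters came from 2000 variable genes without the members and pathway lists, 40 components, 20 neighbours and Leiden resolution 1 (26 clusters at E12, 42 at E16, 47 at E18). A name needed 3 markers at 50 CPM and 2-fold over a baseline, and a lead of 0.2 (log2) over the next name. The baseline, also used for E16, was the lower quartile of the E12 and E18 clusters, with 10 CPM added to both sides. Names were rebuilt here and may differ from those of the study. Counts were summed per library and class and tested with edgeR's quasi-likelihood test after its low-count filter and TMM scaling, with Benjamini-Hochberg adjustment over all genes. A call needed an adjusted p under 0.05, and between stages also a 2-fold change. The FGF8 fit and the interaction fit had the library as a block. Likeness between genes used a pseudocount of 10 CPM and genes with at least 200 UMIs. Poisson and ratio intervals are exact at 95%, and the floor for a count of 0 is 3 counts. Both cover counting error only. Some of the fits were also run on simulated counts with a single dispersion and no library effect. That setting is simpler than the libraries here, so it does not show error rates for them.

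Alternatives were DESeq2, library totals without TMM, no low-count filter, leaving out each library, at least 1000 genes per barcode, doublets kept, the replicate number as a block, thinned ventral sums, other definitions of the FGF8 groups, and only cells of 2000 UMIs or more without a HINTW UMI. Fits ran in R 4.3.3 with edgeR 4.0.16, limma 3.58.1 and DESeq2 1.42.0. Clustering ran in Python 3.11.15 with leidenalg 0.10.2, igraph 0.11.9, scikit-learn 1.9.0, pandas 2.3.3, scipy 1.17.1 and numpy 2.4.6, and plots with matplotlib 3.10.9.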

Additional observations from a re-analysis of the deposited data

Results flagged for a closer look

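In 8 of 67 sets of 4 libraries, 1 library stood apart from the other 3 by Dixon's criterion at 95%, where chance gives about 1 in 20. E12 library 3 had 218 CPM of ALDH1A1 in Muller glia-like cells against 186 to 191 CPM in the others. E18 library 4 had 29.8 CPM of ALDH1A1 over all cells against 24.5 to 25.2 CPM. E12 library 1 stood apart in photoreceptor-like cells for both CRABP1, at 79.1 CPM against 47.6 to 52.7 CPM, and RBP4, at 11249 CPM against 12323 to 12488 CPM. E18 library 3 had 147 CPM of CRABP1 in RGC-like cells against 102 to 106 CPM, and 35.9 CPM of RBP4 in amacrine-like cells against 27.5 to 28.3 CPM. E18 library 1 had 1294 CPM of CRABP1 in bipolar-like cells against 1170 to 1185 CPM. The same library had 42.3 CPM of STRA6 in horizontal cell-like cells against 17.1 to 20.1 CPM.

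The stage change differed between Muller glia-like and amacrine-like cells for 3 genes. The glial minus amacrine difference of the log2 changes was -2.83 for CRABP1, -2.25 for CYP26A1 and 1.75 for RBP4.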

How the results depend on the processing

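Of 593 values of single members under the alternatives, 574 kept their side of the threshold, 11 lost their call, 6 gained one and 2 called values reversed. Direction was compared only for called values, so a value not called could change sign without being counted as reversed. Examples are ALDH1A3 in glia between the stages, from -0.96 to 0.37, and CRABP1 in E16 amacrine-like cells, from -1.14 to 0.72. The 2 called values that reversed were RBP4 over all cells, -1.18 with only cells of 2000 UMIs or more without a HINTW UMI against 1.22 (0.04 with at least 1000 genes per barcode), and ALDH1A1 in the FGF8 split, 0.36 with cycling progenitor-like cells added against -0.76. Counts of members called moved as follows, and the cause was not tested. With DESeq2 they were 2 in bipolar-like and 2 in amacrine-like cells between the stages (1 each with edgeR), 0 between dorsal and ventral RGC-like cells (2, with no adjusted p for ALDH1A1) and 1 in the FGF8 split (2). With no low-count filter they were 3 in bipolar-like and 2 in amacrine-like cells. With at least 1000 genes per barcode they were 0 in photoreceptor-like cells (1) and 1 in E16 amacrine-like cells (0). With only cells of 2000 UMIs or more without a HINTW UMI they were 0 in photoreceptor-like cells and 0 between dorsal and ventral RGC-like cells. Thinned ventral sums gave 1 in the latter, and adding progenitor-like cells gave 4 in the FGF8 split. Leaving out 1 library gave 1 to 2 in amacrine-like cells between stages, 2 without any 1 of the E18 libraries. It gave 0 to 2 in E16 RGC-like cells (0 without dorsal library 2, 1 without dorsal library 1 or ventral library 2), 0 to 1 in E16 amacrine-like cells (1 without dorsal library 1) and 1 to 2 in the FGF8 split (1 without library 1 or 3). Other counts moved by at most 1, from 3 to 2 or 3 in horizontal cell-like cells, 2 to 4 over all cells (4 without E18 library 1 or 3) and 2 to 4 for the interaction (2 without E18 library 3).

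Over all genes, DESeq2 called 63 against 226 in the FGF8 split, 618 against 1820 in dorsal and ventral RGC-like cells and 73 against 269 in E16 amacrine-like cells. Library totals in place of TMM moved the share of calls that were higher from 60.5% to 46% in glia, from 60.8% to 83.0% in photoreceptor-like cells, from 61.0% to 76.1% in amacrine-like cells, from 57.8% to 71.2% in RGC-like cells, from 66.7% to 78.6% over all cells and from 55.3% to 29.0% for the interaction.

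Same-numbered libraries did not deviate together (r from -0.0968 to 0.0975 between E12 and E18, 0.015 at E16). With 2 libraries per region, the E16 value rests on a single contrast in each region. Whether same-numbered libraries share embryos cannot be told from these values, and no label says so. With the replicate block, the members called were 1 in photoreceptor-like, 1 in bipolar-like, 3 in horizontal cell-like, 1 in amacrine-like and 1 in RGC-like cells, 3 in glia, 3 over all cells, and 2 and 0 in E16 RGC-like and amacrine-like cells, as without it. Without the library block the FGF8 split gave 2. The tests of TBX5 against VAX1 glia and their alternatives were not run, by the minimum of 20 cells a library set for them. Rare genes (ALDH1A2, CYP26B1 and CYP26C1) are limited by depth.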

Other observations

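In E12 Muller glia-like cells, CYP26A1 and FGF8 UMIs met in 45 cells, against 18.6 from the product of their shares. All 5 glial cells with a CYP26C1 UMI at E12 had an FGF8 UMI, and 2 of them had a CYP26A1 UMI. ALDH1A1 UMIs met those of TBX5 in 45 cells at E12, against 17.4 from the product of the shares, and in 99 cells at E18, against 39.1. ALDH1A3 and TBX5 UMIs met in 0 cells at E12, and ALDH1A3 and VAX1 UMIs met in 8, against 2.59 from the product. ALDH1A1 and CYP26A1 met in 19 E12 cells, against 28.3, and in 18 E18 cells, against 17.7. These counts are given with no test.

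FGF8 itself had 461 UMIs over all cells at E12 and 30 at E18, of which 17 lay in glia. Of the 48 CYP26C1 UMIs of E18, 5 lay in the 15 glia with an FGF8 UMI.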
